A study of Oryza sativa with 16 samples.

Results

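Open chromatin of rice seedlings after 24 h of cold was set against that of control seedlings, peak by peak. The seedlings were of the Japonica cultivar Nipponbare and 14 days old. Controls were grown at 28 °C, and the cold group was moved from this temperature to 4 °C for 24 h. Both groups had 2 FAIRE-seq replicates, but the replicates of a group were deposited together as 1 peak list. No value below therefore has a replicate error, and no test between the groups was possible. The samples were whole seedlings, so a peak that is open in a few cells cannot be told apart from one that is weakly open in many. The labels name no control that was sampled together with the cold group. The other 5 lists of the series are used below for comparison only, and they came from seedlings of the same cultivar and age. These seedlings were given 4 °C for 12 h, heat for 30 min or 3 h, or sodium chloride (salt) for 2 h or 6 h. All 102210 peaks of the cold 24 h list and all 99518 peaks of the control list were compared, 201728 of the 695463 peaks in the 7 lists of the series.

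FAIRE-seq recovers the DNA that formaldehyde does not fix to protein, which is mostly DNA with few nucleosomes. Such open stretches are known to lie at promoters and enhancers, where transcription factors bind. Rice is a chilling-sensitive crop of warm regions, and cold is known to switch on stress genes through transcription factors such as those of the DREB1/CBF family. No gene is named here, because an annotation of the build of the lists, IRGSP 1.0, was not used. Peaks are given by their position, counted from 1.

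The cold 24 h list and the control list resembled each other closely. Both held peaks on all 12 chromosomes and no overlapping peaks within a list. Cold 24 h peaks covered 85.3 Mb with a median width of 653 bp, and control peaks covered 82.8 Mb with a median of 649 bp. Peaks of both lists shared 75.3 Mb. A further 10.1 Mb was covered after cold 24 h only and 7.51 Mb in the control only. Most of these bases lay next to a shared peak and not in a new one. Edges of one-to-one pairs, in which a control peak and a cold 24 h peak overlap only each other, made up 57.1% of the bases found after cold 24 h only and 59.4% of those found in the control only. Gained peaks held 27.8% of the former and lost peaks 22.4% of the latter.

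A gained peak is a cold 24 h peak that overlaps no control peak by even 1 bp, and a lost peak is a control peak that overlaps no cold 24 h peak. Gained peaks numbered 8358, which is 8.18% of the cold 24 h list, with a 95% Wilson interval from 8.01% to 8.35%. Lost peaks numbered 5496, or 5.52% of the control list, with an interval from 5.38% to 5.67%. These intervals cover counting error only. There were thus 1.52 gained peaks for each lost one. The excess of 2862 peaks is nearly the difference in length of the lists, 2692 peaks, and the rest comes from splits and merges. In lists of equal length it is therefore small by construction: with the 99518 cold 24 h peaks of highest fold enrichment, 7406 were gained and 7079 lost. The number of reads behind each list is unknown here.

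Most peaks of both lists had a single partner. One-to-one pairs numbered 87384, which is 85.5% of the cold 24 h list and 87.8% of the control list. The remaining linked peaks were split, merged or both. A single control peak was linked to 2 or more cold 24 h peaks and to no other peak at 2015 places, and a single cold 24 h peak to 2 or more control peaks at 2157 places. At 121 further places several peaks of each list were linked. Splitting and merging were thus about equally common, and at nearly all of the split and merged places the number was exactly 2 (1983 and 2097 places). At the split places the control peaks covered 4.20 Mb and the cold 24 h peaks 3.22 Mb. At the merged places the order was turned round, with 3.18 Mb in the control and 4.32 Mb after cold 24 h.

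Gained and lost peaks were alike in shape, and both were narrow and weak. The median gained peak was 254 bp wide and the median lost peak 237 bp, against 702 bp for cold 24 h peaks with a partner and 681 bp for control peaks with one. Under 300 bp were 61.7% of the gained and 70.2% of the lost peaks. Of the peaks with a partner, 13.5% in the cold 24 h list and 14.7% in the control list were so narrow. The narrowest peak of either list was 200 bp wide, and the lower quartiles were 215 bp for gained and 211 bp for lost peaks. Many of these peaks thus had nearly the lowest width in the lists. The fold enrichment is the signal of a peak over its local background, as MACS2 gave it to the authors. Its median was 1.89 for gained and 1.93 for lost peaks. These medians stood at percentiles 16.5 and 18.0 of their own lists. Among the 10% of highest fold enrichment in their list were 0 gained peaks and 2 lost peaks. The significance of a peak, −log10 q, was under 2 for 17.7% of the gained and 19.6% of the lost peaks. For peaks with a partner this held for 2.04% in the cold 24 h list and 2.71% in the control list. The lowest values of the lists were 1.00 and 1.02. How many gained or lost peaks only crossed the limit of peak calling was not tested. Peaks of at least 1000 bp were rare, with 54 among the gained and 17 among the lost.

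The share of peaks without a partner was thus much lower among wide peaks. Of the cold 24 h peaks from 200 to 249 bp, 37.7% were gained (interval 36.7% to 38.6%), and of the control peaks of this width, 29.8% were lost (28.9% to 30.7%). At widths from 400 to 599 bp the shares were 7.40% gained and 3.96% lost. At 1500 bp or more, 3 of 13825 cold 24 h peaks were gained and 2 of 13410 control peaks were lost. In the plot of shares by width the gained share lay above the lost share at each of the 5 widths under 1000 bp, with intervals that did not overlap; the lists are of unequal length here.

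**Figure D1:**
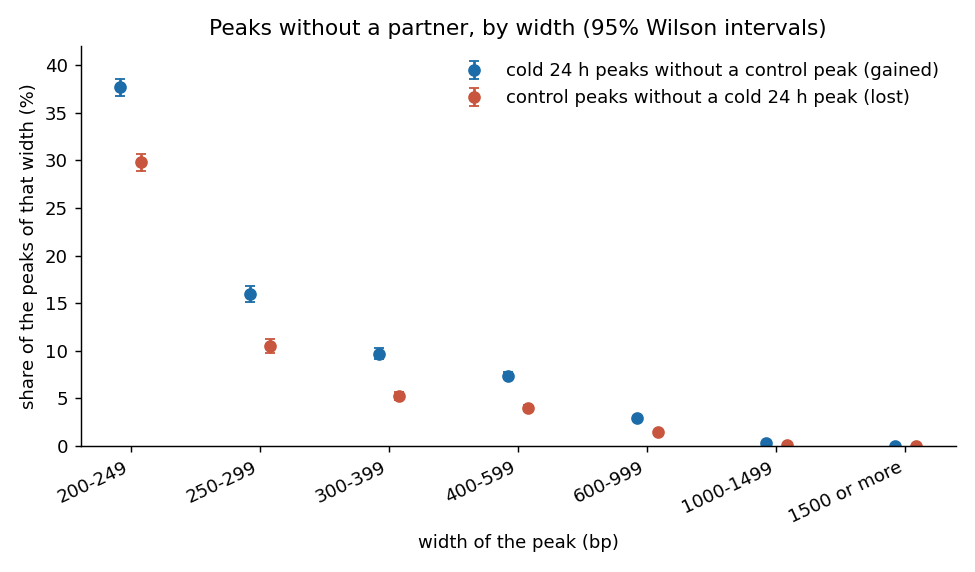
Share of peaks without a partner (vertical axis, percent of all peaks of that width in their list) against peak width in bp, for cold 24 h peaks without a control peak and control peaks without a cold 24 h peak. Points are shares and bars are 95% Wilson intervals, which cover counting error only; both shares go from above 29% at 200 to 249 bp to almost 0 at 1500 bp or more.

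Most gained peaks lay over 500 bp from the nearest control peak. The median gap to the nearest control peak was 1027 bp, with quartiles of 643 and 1797 bp, and 11.5% of the gained peaks lay under 500 bp from a control peak. For lost peaks the median gap to the nearest cold 24 h peak was 943.5 bp, and 13.4% were under 500 bp away. Far from any peak of the other list, by over 5000 bp, were 319 gained peaks (3.82%) and 158 lost peaks (2.87%). No spacing of other peaks is given beside these gaps, so whether they are unusual was not tested.

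The strongest gained peaks were modest and had partners in other conditions. The 10 gained peaks of highest fold enrichment had values from 2.95 to 3.32, widths from 209 to 442 bp and −log10 q from 9.88 to 13.7, and they lay on 7 chromosomes. The first of them was 442 bp wide, on chromosome 10 from 22733977 to 22734418, 2094 bp from the nearest control peak. Its fold enrichment was 3.32 after cold 24 h, 1.78 after cold 12 h, 2.57 after heat 30 min, 3.33 after heat 3 h, 2.67 after salt 2 h and 3.29 after salt 6 h. This place thus had a peak in every list but the control. The second, on chromosome 4 from 28288166 to 28288434, had a fold enrichment of 3.23 after cold 24 h. It too had a peak in all 5 other stress lists, with values from 1.98 after cold 12 h to 3.19 after salt 6 h. The fifth, on chromosome 5 from 23146355 to 23146608, was stronger after heat 30 min than after cold 24 h, with 3.54 against 3.08, although fold enrichments of different lists are not on a common scale. The last of the 10, on chromosome 12 from 14963458 to 14963666, had 2.95 after cold 24 h, and the cold 12 h list, with 2.10, was the only other one with a peak there. All 10 had a cold 12 h peak, 9 had one after heat 30 min, 8 after heat 3 h, 8 after salt 2 h and 4 after salt 6 h.

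The strongest lost peaks stood slightly higher in their list. The 10 lost peaks of highest fold enrichment had values from 3.08 to 3.50 and widths from 245 to 293 bp. The first, on chromosome 8 from 22026331 to 22026621, had a fold enrichment of 3.50 in the control, 1.88 after cold 12 h, 2.21 after heat 30 min and 2.38 after salt 2 h, and no peak after heat 3 h or salt 6 h. The second, on chromosome 5 from 24166965 to 24167228, had 3.49 in the control and no peak in either cold list, but 2.59 after heat 30 min, 2.76 after salt 2 h and 2.93 after salt 6 h. The ninth, on chromosome 7 from 17164098 to 17164342, had 3.10 in the control and 3.11 after salt 6 h, and no other list had a peak there. Of the 10, 6 had a peak after cold 12 h, 8 after heat 30 min, 1 after heat 3 h, 6 after salt 2 h and 3 after salt 6 h.

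The widest gained and lost peaks were weak. The 5 widest gained peaks were 1395 to 1953 bp wide with a fold enrichment from 1.64 to 2.22. The widest lay on chromosome 4 from 32347796 to 32349748, 1067 bp from the nearest control peak, with a fold enrichment of 1.72. All 5 also had a cold 12 h peak and a heat 30 min peak, 4 had a heat 3 h peak, and 1 had a peak in the salt lists. The 5 widest lost peaks were 1269 to 1678 bp wide with a fold enrichment from 1.67 to 1.97. The widest of these, on chromosome 10 from 19775465 to 19777142, had a peak in each of the 5 other stress lists. All 5 had a heat 30 min peak and a salt 2 h peak, whereas 2 had a cold 12 h peak.

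Among one-to-one pairs, most peaks kept their width closely. The median ratio of the cold 24 h width to the control width was 1.00, the middle quartiles of the ratio ran from 0.949 to 1.07, and the median difference in either direction was 40 bp. Widened pairs, in which the cold 24 h peak was at least 1.5 times as wide as the control peak, numbered 5306, which is 6.07% of the pairs (interval 5.92% to 6.23%). Narrowed pairs, with a control peak at least 1.5 times as wide as the cold 24 h peak, numbered 3214 or 3.68% (3.56% to 3.80%). Widened pairs were thus 1.65 times as many as narrowed ones.

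**Figure D2:**
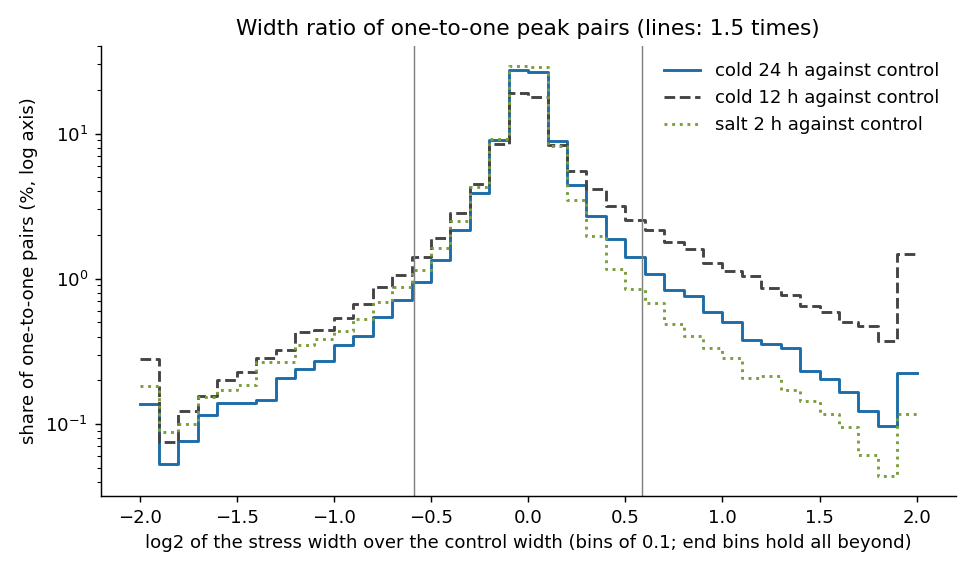
Share of one-to-one pairs (vertical axis, percent, log scale) by the log2 of the stress width over the control width (horizontal axis, bins of 0.1), for cold 24 h, cold 12 h and salt 2 h, each against the control. Vertical lines mark a ratio of 1.5 in either direction; beyond the right line the cold 24 h curve lies between those of cold 12 h and salt 2 h, with 6.07% of its pairs against 15.1% for cold 12 h and 3.49% for salt 2 h.

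The widths after cold 24 h were nearer to the control than those after cold 12 h. The median difference in either direction was 40 bp for cold 24 h and 77 bp for cold 12 h, but salt 2 h was nearer still with 35 bp. Against the same control list, 15.1% of the 81230 pairs of cold 12 h were widened and 5.9% narrowed, so that widened pairs were 2.56 times as many. For heat 30 min the shares were 11.7% and 3.09%. The other lists had the opposite order. For salt 2 h, 3.49% of the pairs were widened and 4.86% narrowed, for heat 3 h 5.43% and 14.2%, and for salt 6 h 2.97% and 14.3%. The direction went with the covered length of the lists. Lists with more widened pairs covered more than the 82.8 Mb of the control, with 96.2 Mb for cold 12 h, 95.2 Mb for heat 30 min and 85.3 Mb for cold 24 h. Those with more narrowed pairs covered less, with 81.0 Mb for salt 2 h, 69.9 Mb for heat 3 h and 68.6 Mb for salt 6 h. All of these comparisons share the control list, and with 1 list per condition the differences between them have no replicate check.

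Widening and narrowing were mostly on a single side. Of the widened pairs, 89.5% had gained at least 100 bp at exactly 1 edge, 8.05% at both edges and 2.45% at neither. The side had no preference, with 2348 pairs at the edge of lower coordinate and 2401 at the edge of higher coordinate. Of the narrowed pairs, 91.7% had lost at least 100 bp at exactly 1 edge. The median widened pair went from 351 bp in the control to 798 bp after cold 24 h, and the median narrowed pair from 791 to 350.5 bp. These classes mirrored each other. Their fold enrichments were also similar, with a median of 2.19 in the control and 2.13 after cold 24 h for widened pairs and of 2.07 and 2.15 for narrowed pairs.

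Which widths had the most changes depended on the list used to sort the pairs. Among the fifth of pairs with the narrowest control peaks (200 to 339 bp), 14.6% were widened and 0.601% narrowed, and among the fifth with the narrowest cold 24 h peaks (200 to 352 bp), 1.16% were widened and 9.24% narrowed. Sorted by the mean width of both peaks, widened pairs outnumbered narrowed ones in each of the 5 classes, by factors from 1.55 to 1.84. The shares were highest for pairs with a mean width from 356.5 to 562.5 bp, with 10.3% widened and 6.26% narrowed, and lowest for those of at least 1247 bp, with 1.68% and 0.984%. A ratio asks for more bp of a broad peak, and the median difference in either direction was 45 bp in the broadest class against 29 bp in the narrowest.

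The largest differences in width exceeded 1.5 kb among widened pairs. On chromosome 2 a control peak of 1037 bp, from 6299411 to 6300447, faced a cold 24 h peak of 2751 bp, from 6299434 to 6302184, so that the edge of higher coordinate moved by 1737 bp and the other by 23 bp. On chromosome 4 a control peak of 969 bp, from 34832402 to 34833370, faced one of 2598 bp, from 34832395 to 34834992. This place was covered over 2569 bp by a single cold 12 h peak and over 2560 bp by a single heat 30 min peak, but over only 423 bp after salt 6 h. The wide form was thus not limited to cold 24 h. The 5 largest differences among widened pairs were 1521 to 1714 bp, at fold enrichments from 1.55 to 2.98 in the control and from 1.56 to 2.11 after cold 24 h.

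Among narrowed pairs, the largest difference was on chromosome 2, where a control peak of 3320 bp, from 29887799 to 29891118, faced a cold 24 h peak of 1610 bp, from 29889170 to 29890779. Its fold enrichment was 1.73 in the control and 1.94 after cold 24 h. On chromosome 6 a control peak of 1662 bp, from 19653516 to 19655177, faced a cold 24 h peak of 201 bp, from 19654280 to 19654480, and peaks covered 207 bp of this place after cold 12 h and 203 bp after heat 3 h. Here the narrow form was found in every stress list but salt 2 h, which was intermediate with 642 bp in 3 peaks. On chromosome 12 a control peak of 2462 bp, from 10274990 to 10277451, faced one of 794 bp, whereas a heat 30 min peak covered 2437 bp there.

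Every chromosome had a higher share of gained than of lost peaks. The gained share ran from 7.62% on chromosome 10 (interval 6.98% to 8.31%) to 8.71% on chromosome 7 (8.11% to 9.35%). All 12 intervals held the share of the whole list, 8.18%, so no chromosome differed from it beyond counting error. Lost peaks were less even. Their share was 4.99% on chromosome 2 (4.58% to 5.43%), 5.02% on chromosome 1 and 5.05% on chromosome 3, and the intervals of these long chromosomes lay below the share of the whole list, 5.52%. It was 6.28% on chromosome 12 (5.71% to 6.91%) and 6.13% on chromosome 8 (5.61% to 6.70%), and these intervals lay above it. Since the cold 24 h list is the longer one on each chromosome, a higher share gained than lost follows in large part from that. Cold 24 h peaks covered more bases than control peaks on all 12 chromosomes, by 2.33% on chromosome 8 to 4.12% on chromosome 2.

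**Figure D3:**
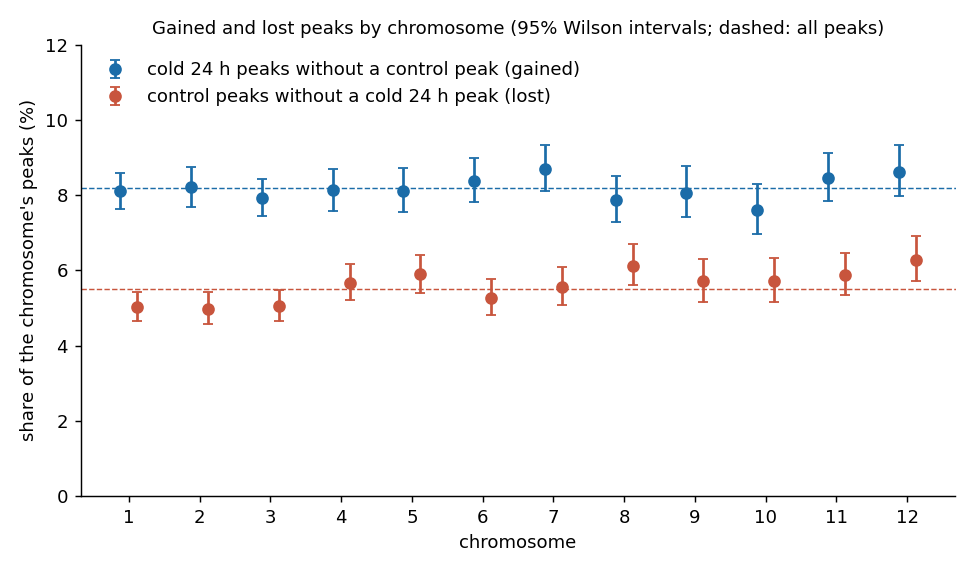
Share of gained peaks among the cold 24 h peaks and of lost peaks among the control peaks (vertical axis, percent) on each of the 12 chromosomes. Points are shares, bars are 95% Wilson intervals (counting error only) and dashed lines are the shares over all peaks, 8.18% and 5.52%; gained shares lie above lost shares on every chromosome, and lost shares are lowest on chromosomes 1, 2 and 3.

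Widened pairs outnumbered narrowed pairs on every chromosome as well. The share of widened pairs was between 5.83% on chromosome 1 and 6.22% on chromosome 2. Narrowed pairs ran from 3.25% on chromosome 1 (2.93% to 3.61%) to 4.17% on chromosome 12 (3.67% to 4.73%). Chromosome 12 thus had the highest shares of both lost and narrowed peaks, and chromosome 1 was low in both.

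Along the chromosomes, peaks were counted in 379 windows of 1 Mb, of which 378 had at least 50 peaks in both lists. The gained share had a median of 8.14% and middle quartiles of 6.85% and 9.44%, and the lost share a median of 5.41% and quartiles of 4.38% and 6.63%. A window held a median of 284 cold 24 h peaks, so single shares are imprecise. The interval held the share of the whole list in 347 windows for gained and in 342 windows for lost peaks. The gained share was higher than the lost share in 327 windows and lower in 50. Cold 24 h peaks covered more bases than control peaks in 341 of the 378 windows and fewer in 37. The median difference was 6.48 kb, and the extremes were -7.51 kb and 24.6 kb. Changes were thus spread over the genome in small amounts. Over the 378 windows the Spearman rho of gained and lost share was 0.0900, which is given as a description, since all windows share the same libraries.

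**Figure D4:**
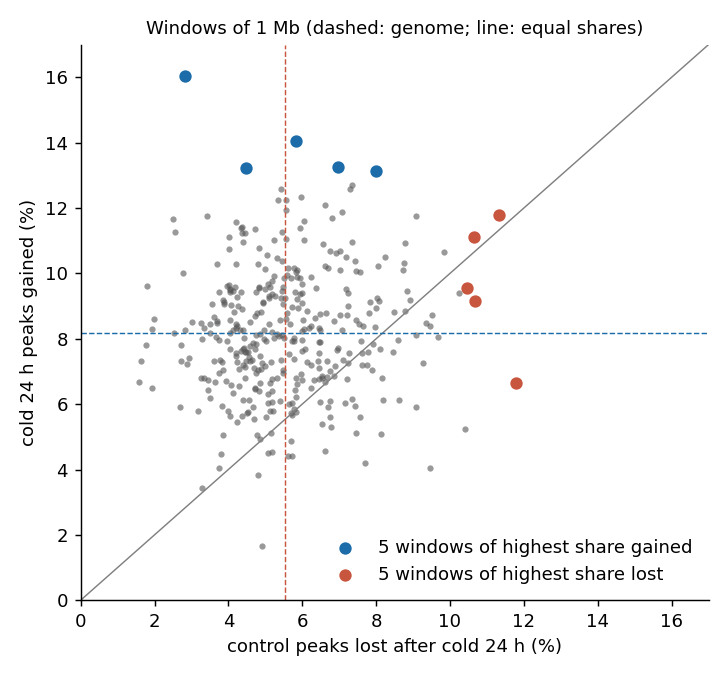
Share of cold 24 h peaks gained (vertical axis, percent) against share of control peaks lost (horizontal axis, percent) in 378 windows of 1 Mb, 1 point each. Dashed lines are the shares over all peaks, the solid line marks equal shares, and the coloured points are the 5 windows of highest share gained and the 5 of highest share lost; most points lie above the solid line, in 327 windows.

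The 5 windows of highest gained share lay toward chromosome ends, but this did not hold under each setting. With only peaks of −log10 q of at least 2, the highest was in the interior of chromosome 12, from 15000001 to 16000000, with 15.4%. At the end of chromosome 6, the last window, from 31000001 to the last peak end at 31236245, had 13 gained of 81 peaks, or 16.0% (interval 9.63% to 25.5%), and 2 lost of 71 control peaks. The window before it, from 30000001 to 31000000, had 32 gained of 242, or 13.2% (9.52% to 18.1%), and 19 widened against 4 narrowed pairs. The other windows of the 5 highest were chromosome 1 from 2000001 to 3000000 with 42 of 299 (14.0%), chromosome 9 from 1000001 to 2000000 with 39 of 294 (13.3%) and chromosome 10 from 1 to 1000000 with 28 of 213 (13.1%). All 5 intervals lay above the share of the whole list, but these windows were picked as the highest of 378. Over all 23 first and last windows of the chromosomes, the gained share was 9.05% (8.28% to 9.88%). In the other windows it was 8.13% (7.96% to 8.31%). The intervals overlapped only slightly, and their overlap is not a test of the difference. The first and last windows also include the picked last window of chromosome 6 and first window of chromosome 10. Their higher gained share is thus in part fixed by the windows that raised the question. The lost shares of these sets were 5.51% and 5.52%.

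The highest lost shares were inside the chromosomes, with the exception of chromosome 9. On chromosome 4 from 16000001 to 17000000, 39 of 331 control peaks were lost, or 11.8% (8.74% to 15.7%), while the gained share there was 6.65%. The next were chromosome 9 from 1 to 1000000 with 22 of 194 (11.3%), chromosome 8 from 13000001 to 14000000 with 24 of 225 (10.7%), chromosome 6 from 15000001 to 16000000 with 28 of 263 (10.6%) and chromosome 11 from 12000001 to 13000000 with 14 of 134 (10.4%). In 4 of these 5 windows the cold 24 h peaks covered less than the control peaks, by between 1.08 and 3.56 kb. The window of chromosome 6 covered 2.27 kb more after cold 24 h, although it held 13 widened against 20 narrowed pairs.

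Windows with few peaks had somewhat higher shares of both classes. In the fifth of windows with the fewest control peaks (61 to 226), 9.05% of the cold 24 h peaks were gained (8.59% to 9.53%) and 6.29% of the control peaks were lost (5.90% to 6.70%). In the fifth with the most (302 to 354), the shares were 7.54% (7.22% to 7.88%) and 5.23% (4.95% to 5.52%). The intervals of both extremes did not overlap for either class. Widened pairs made up 6.61% in the former and 5.94% in the latter.

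Most gained places were also open in at least 1 other stress list. Of the 8358 gained peaks, 74.6% had a peak after heat 30 min and 67.6% after cold 12 h, but 39.4% after heat 3 h, 35.1% after salt 2 h and 24.4% after salt 6 h. The lists themselves differ in length, so these shares need to be read beside those of peaks with a partner. Of the 12627 matched cold 24 h peaks under 300 bp, 89.3% had a peak after heat 30 min and 80.1% after cold 12 h. The shares were 51.1% after heat 3 h, 82.0% after salt 2 h and 55.1% after salt 6 h. Gained peaks of all widths were below these in every list. The gap was 11.7 percentage points for heat 3 h, 12.6 points for cold 12 h and 14.7 points for heat 30 min. It was 30.7 points for salt 6 h and 47.0 points for salt 2 h. Gained peaks under 300 bp were lower still, with 73.0%, 66.8%, 34.4%, 31.4% and 22.0% in the same order of lists. Gained peaks were picked for the lack of a control peak, and all lists are set against that control, so the low values are in part fixed by the choice.

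A small class of the gained peaks was found after cold 24 h alone. None of the 5 other stress lists had a peak at 445 of them (5.32%, interval 4.86% to 5.83%). Of all cold 24 h peaks, with or without a control peak, this held for 0.663%. A peak in all 5 other stress lists was found for 358 (4.28%), against 70.6% of all cold 24 h peaks, and 69.0% had one in 2 or 3 of them. In exactly 2 it was 38.2% of the gained peaks against 5.91% of all cold 24 h peaks, and in exactly 3 it was 30.8% against 9.20%. Those found in no other list had a median width of 219 bp and a fold enrichment of at most 2.66, and those found in all 5 had a median of 351 bp. The narrowest peak of the cold 24 h list was 200 bp wide, so the former were close to the lowest width. Both cold 12 h and heat 30 min had a peak at 62.6% of the gained peaks, cold 12 h without heat 30 min at 4.99%, and heat 30 min without cold 12 h at 12.0%. Places shared by both cold times but not by early heat thus numbered 417. Of all cold 24 h peaks, 92.9% had a cold 12 h peak and 95.7% a heat 30 min peak. The share with the former but not the latter was not computed over all peaks. Whether the class of 417 is small for gained peaks was therefore not tested.

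Lost peaks differed from gained peaks in the lists that held them. Of the 5496 lost peaks, 56.8% had a peak after heat 30 min, 42.5% after cold 12 h, 40.9% after salt 2 h, 27.2% after salt 6 h and 16.7% after heat 3 h. Among the 13776 matched control peaks under 300 bp the shares were 90.2%, 82.3%, 81.5%, 51.1% and 56.3%, in the same order. The shares of lost peaks were lower than those of the gained peaks for cold 12 h and both heat lists and higher for both salt lists, with intervals that did not overlap. The classes were picked in opposite ways, by a peak in the control or in the cold 24 h list only. Part of this difference is therefore fixed by the choice, and it was not tested. At 57.5% of the lost peaks (3162), the cold 12 h list also had no peak, so that a control peak was missing at both cold times. None of the 5 other stress lists had a peak at 1033 of the lost peaks (18.8%, 17.8% to 19.9%), which had a median width of 225 bp. Of all control peaks, with or without a cold 24 h peak, this held for 1.27%. At 114 (2.07%, against 72.3% of all control peaks), all 5 other stress lists had a peak, which leaves cold 24 h as the only list without one.

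**Figure D5:**
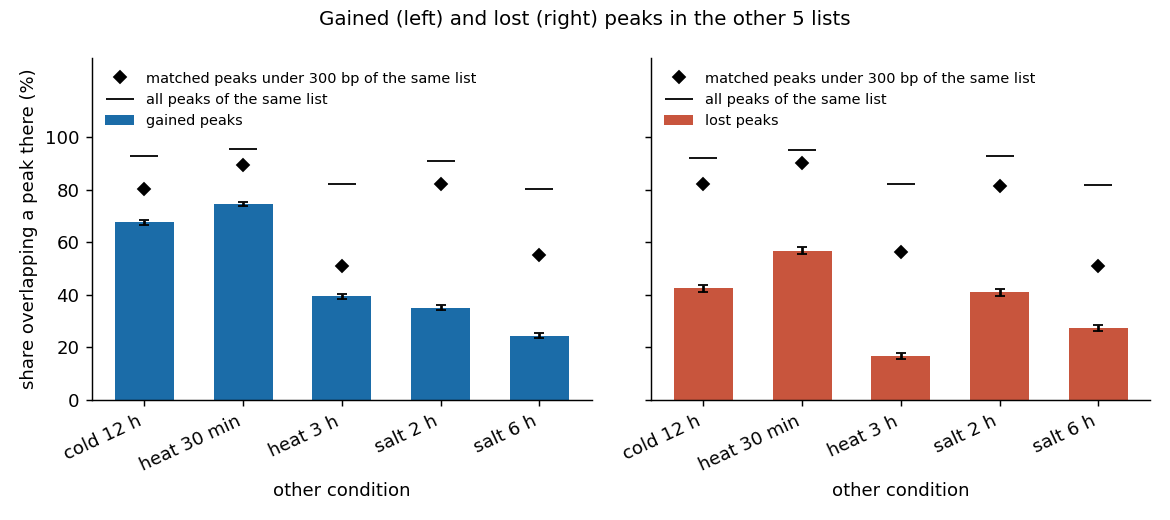
Share of the gained peaks (left) and of the lost peaks (right) that overlap a peak in each of the other 5 lists (vertical axis, percent). Bars are shares over gained or lost peaks of all widths, with 95% Wilson intervals (counting error only). Diamonds are matched peaks under 300 bp of the same list and short lines are all peaks of the same list. Bars lie below the diamonds in every list, and the gap for gained peaks is largest for salt 2 h.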

How the data were processed

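FAIRE-seq was analysed for control and cold 24 h seedlings, with 2 replicates each. The authors used Bowtie2 to align 50-base single-end reads to IRGSP 1.0. After reads at organelle insertions, with a mapping score under 10 or in duplicate had been taken out, they called broad peaks with MACS2 and left out those with under 1 RPM in a replicate. They deposited 1 list per condition, and how the replicates were combined is not given in the sources used here. Deposited fold enrichments are ratios, and deposited significance is −log10 q. Both were used within their own list only, or as the value of that list.

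Peaks were matched by an overlap of at least 1 bp. Widened and narrowed pairs differ by at least 1.5 times in width. A peak was put in a window of 1 Mb by its midpoint, and windows with under 50 peaks of either list got no share. Shares have 95% Wilson intervals (counting error only). The number of reads per list is not part of the lists, so the depth behind a peak is unknown here. No p-value was computed, since each condition has 1 list.

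Regions are named by rule: the 10 gained and 10 lost peaks of highest fold enrichment, the 5 widest of each, the 5 widened and 5 narrowed pairs with the largest difference in bp, the 5 windows of highest share, and the chromosomes of highest and lowest share. Of these, the text gives some in full and the rest as ranges. The members and rules were chosen with earlier results of these data known. No rice gene or sequence is given, because no genome of this build was used here.

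The functions were tested on 5000 simulated positions and recovered 7 of 7 known counts. On the deposited lists, bedtools 2.31.1 gave the same 6 of 6 values. Python 3.11.15, numpy 2.4.6, pandas 2.3.3, scipy 1.17.1 and matplotlib 3.10.9 were used. RNA-seq libraries were not analysed here. Alternatives were a stricter limit on −log10 q, lists of equal length, a larger overlap, a wider gap, other width ratios, linked groups in place of pairs, other window sizes, the 20000 strongest peaks and a minimum width.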

Additional observations from a re-analysis of the deposited data

How the results depend on the processing

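No paired analysis was possible because the replicates of each condition were deposited as 1 list, and for the same reason no replicate could be left out. A count was taken as moved when it differed by over 1.5 times, a share when it left its 95% interval. The gained share was 8.75% and the lost share 5.86% with only peaks of −log10 q of at least 2 in both lists, 7.44% and 7.11% in lists of equal length, 11.2% and 7.47% when at least 50% of a peak had to be covered, 7.23% and 4.78% when no peak could lie within 500 bp, and 6.96% and 4.61% with the limit on −log10 q in the own list only. Gained peaks outnumbered lost ones in all of these, by 1.05 to 1.56 times. With peaks of at least 300 bp only, a setting chosen after seeing the data, 3203 peaks were gained (3.79%) and 1636 lost (2.00%). A width difference of at least 25% gave 9735 widened and 6542 narrowed pairs, and a ratio of 2 gave 2281 and 1341. In lists of equal length the gained share was the higher in 55.6% of the windows, against 86.5%, and on 7 chromosomes, against 12, which equal lengths bring about by construction. The highest lost share was 15.8% in windows of 500 kb. The window of highest gained share was on chromosome 6 in windows of 1 and 2 Mb, on chromosome 7 in windows of 500 kb, inside chromosome 12 under the stricter limit and on chromosome 10 in lists of equal length. The 20000 strongest peaks covered 17.7 Mb in the control and 18.6 Mb after cold 24 h, and these settings also differ by construction in how many peaks they hold. For the other changes, the cause was not tested.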

Other observations

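The order of peaks by strength was largely kept between the lists. Over the 87384 one-to-one pairs, the fold enrichments of the control and of cold 24 h had a Spearman rho of 0.868, as a description across peaks, which are not replicates. Of the 9624 pairs whose control peak was among the 10% of highest fold enrichment in its list, 71.5% (6885) had a cold 24 h peak among the 10% of highest fold enrichment in its own. The percentile of a peak in its list moved by a median of 7.96 points in either direction. It was at least 30 points higher after cold 24 h for 2680 pairs (3.07%) and at least 30 points lower for 2213 pairs (2.53%). Widened pairs stood a median of 4.25 points lower in the cold 24 h list than in the control list (-4.25), narrowed pairs 3.70 points higher and all other pairs 1.05 points higher.

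Some gained peaks followed each other in the list with no matched peak between them. There were 607 runs of 2 and 53 runs of 3 or more gained peaks, and 287 and 17 such runs of lost peaks. How many runs an even spread of these peaks would give was not computed. The longest had 4 peaks, at 6 places for gained and at 1 place for lost peaks. Of these, the run on chromosome 6 from 12573827 to 12653935 spread its 4 gained peaks over 80109 bp without a matched cold 24 h peak between them, against 6680 to 13771 bp for the other 5 runs of gained peaks. The single run of 4 lost peaks was on chromosome 1 from 42801126 to 42810374.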
